A study of Drosophila melanogaster with 7 samples.

Results

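Undifferentiated neurons are cells of the young larval brain that carry a neuronal signature without the full set of genes of a working neuron. Here they were chosen by 4 marker genes, hdc (headcase), CG13332, goe (gone early) and lncRNA:CR45973. A cell was taken when it had more than 200 and fewer than 4500 detected genes, under 20% of its UMIs (unique molecular identifiers, counted transcripts) from mitochondrial genes, UMIs of at least 3 of the 4 markers, and at least 10 UMIs per 10000 from the 4 together. This rule found 240 of 8696 filtered cells, or 2.76%, among 9353 cell barcodes. They are called UN-marker cells in the following. Single-cell 3′ libraries had been made by droplet capture from the brains of first instar Drosophila melanogaster larvae of the wild type CS strain, kept at 25 °C. The ventral nerve cord had been cut off and the brain lobes of many larvae pooled and dissociated with collagenase. In the normal condition larvae had fed throughout. In the starvation condition, larvae of the same strain had been moved at 11 h after hatching (as the sample labels give it) to 2% agar without food for 4 h. The 7 libraries stand for 5 replicates: Normal A, Normal B (libraries B.1 and B.2) and Normal C, and Starvation A (libraries A.1 and A.2) and Starvation B.

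hdc encodes a cytoplasmic protein that binds the zinc finger protein Unkempt (unk), and both are known in the fly to act with the TORC1 kinase, the nutrient sensor that drives growth, in setting the time at which neural cells differentiate. When TORC1 is low, the transcription factors REPTOR and REPTOR-BP raise a set of target genes, the translation inhibitor Thor (4E-BP) among them, while scyl and chrb encode inhibitors of TORC1 itself. In the larval brain, neuroblasts divide to give ganglion mother cells and neurons, and a newborn neuron makes synaptic proteins and its transmitter machinery only as it matures.

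Depth differed between the libraries. Filtered cells had a median of 2370 UMIs in Normal A, 3281 in Normal B, 12296 in Normal C, 6908 in Starvation A and 5768 in Starvation B. Barcodes were also shared between libraries: 593 of the 1066 filtered cells of Normal B.1 and 621 of the 1243 of Normal B.2 had a barcode that was also found in another library, mostly in the other library of Normal B or in Starvation A. Among UN-marker cells this held for 22 of 240, and 3 of them had over 3 times as many UMIs in the other library. Results are therefore given with and without cells of the latter kind. Normal C held only 6 UN-marker cells, so that its values are shown but it entered no test across genes.

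The marker genes were chosen by the rule, and their levels are a description. In BDGP6 coordinates, hdc (FBgn0010113, listed as heca in newer annotation) spans 30277932 to 30372382 on 3R, goe (FBgn0027528), which encodes a metallopeptidase-like protein, on X from 16727304 to 16751910, CG13332 (FBgn0033851) on 2R from 13525377 to 13526448 and lncRNA:CR45973 (FBgn0267635) on 3L from 20404270 to 20407558. CG13332 overlaps the monoamine transporter gene Vmat on the opposite strand. hdc was detected in all 240 cells, goe in 222, lncRNA:CR45973 in 168 and CG13332 in 114. hdc, goe and lncRNA:CR45973 without CG13332 was the most frequent combination (126 cells), followed by hdc, CG13332 and goe (72), all 4 genes (24) and hdc, CG13332 and lncRNA:CR45973 (18). Most cells thus met the rule through hdc, with a median of 38 UMIs per cell, and a median of 1 UMI of goe. The 5 lowest cells inside the threshold had 10.3 to 11.4 marker UMIs per 10000 and the 5 highest outside it, with 3 or more markers, 8.77 to 9.61. In all, 25 cells had 3 markers but lay below the threshold, and 746 cells had only 2 markers at 10 or more UMIs per 10000.

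The label was then checked against genes that the rule did not use, and not all cells met it alike. Of the 8 neural progenitor markers dpn, N, ase, klu, mira, wor, grh and insc, 179 UN-marker cells had fewer than 3 detected and 61 had 3 or more. The 61 cells were far deeper, with a median of 21241 UMIs against 2820, and carried a median of 27 marker UMIs per 10000 against 134. Since more UMIs also let more markers be detected, the split depends on depth. The levels of the same 8 genes, which chose the groups, are given as a description. Summed over the 8 genes, the progenitor markers reached 28.0 to 107 CPM (the summed UMIs of the cells scaled to a common total of 1e+06) in the 179 cells of the 4 replicates with 10 or more, against 45.6 to 94.0 CPM in neuron-marker cells. They reached 1103 CPM in the 61 cells of Starvation A and 1333 CPM in those of Starvation B, against 1394 to 1881 CPM in progenitor-marker cells. Neuron-marker cells are here the 5707 other cells with at least 3 of nSyb, Syt1, brp, Snap25, cpx and Syx1A at 10 or more UMIs per 10000 and under 3 progenitor markers, and progenitor-marker cells the 1038 other cells with 3 or more progenitor markers at 5 or more per 10000.

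The 6 neuronal genes, which neither the rule nor the split used, showed the reverse order. They did choose the neuron-marker cells, so that the high level of that class follows from the choice. Their summed level was 2503 to 3552 CPM in the 179 cells, 360 and 947 CPM in the 61 cells of Starvation B and Starvation A, 415 to 1680 CPM in progenitor-marker cells and 6149 to 7692 CPM in neuron-marker cells. The sums of the 179 cells thus lay between those of progenitors and neurons, and those of the 54 starvation cells with progenitor markers overlapped or lay below those of progenitors. The 7 normal cells with progenitor markers were too few for a sum, and single cells among the 61 reached 69.5 neuronal UMIs per 10000. The name neuron was therefore not used for the 61, which are called UN-marker cells with progenitor markers. Genes of other tissues were looked at in part. Over all UN-marker cells, the fat body genes Lsp1beta, Lsp2 and Fbp1 had no UMI in any replicate, and repo, the glial master gene, had at most 28.0 CPM. The 7 muscle genes together had 38.3 to 224 CPM, against 40.6 to 249 CPM in neuron-marker cells. Further genes of glia and fat body and those of hemocytes and the ring gland are not given here. The astrocyte-like glial gene alrm stood at 630 CPM in Normal A, 76.3 in Normal B, 61.0 in Normal C, 392 in Starvation A and 42.1 in Starvation B, and the neuron-marker cells of these replicates had 762, 57.2, 108, 229.8 and 50.2 CPM. In both classes alrm was highest in Normal A and Starvation A, and it reached 941 CPM in the 179 cells of Starvation A. Its part in the results was not tested.

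**Figure D1:**
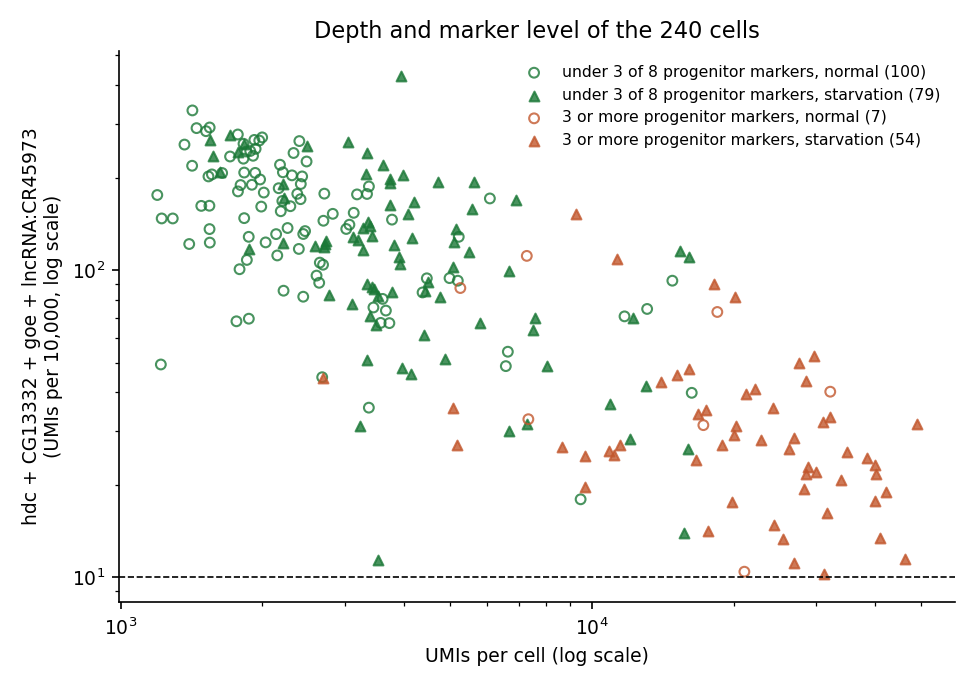
Each of the 240 cells is drawn by its UMIs (x axis, log scale) and by the UMIs per 10000 of the 4 marker genes together (y axis, log scale); circles are normal and triangles starvation cells, green marks cells with under 3 progenitor markers and orange those with 3 or more, and the dashed line is the threshold of 10. The 61 orange cells lie at high depth and low marker level, and 54 of them are from starvation.

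The rule picked between 0.745% and 4.6% of the filtered cells of a library. The share was 1.70% in Normal A (21 cells), 4.6% in Normal B.1 (49), 2.49% in Normal B.2 (31), 0.745% in Normal C (6), 2.62% in Starvation A.1 (46), 3.05% in Starvation A.2 (52) and 3.94% in Starvation B (35). By replicate the mean was 1.97% ± 1.38 (SD, n = 3) in normal and 3.39% ± 0.784 (n = 2) in starvation. The ranges overlapped, and the exact two-sided permutation test gave p = 0.4, where 0.2 is the smallest value that 3 against 2 replicates allow. Over the 7 libraries, which are not all independent, p was 0.457. Without barcodes shared as above, the means were 2.55% and 3.5% (exact permutation p = 0.6).

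The share of cells with progenitor markers among UN-marker cells differed between replicates, and the conditions overlapped. Cells with progenitor markers made up 0 of 21 UN-marker cells in Normal A, which allows up to 14.3%, 3 of 80 in Normal B and 4 of 6 in Normal C, and 37 of 98 in Starvation A and 17 of 35 in Starvation B. The highest share, 66.7%, was that of Normal C, the deepest replicate. Progenitor-marked cells of any kind were likewise least frequent in Normal A and most frequent in Normal C, but Starvation B lay below Normal B. They made up 4.37% of filtered cells in Normal A, 14.2% in Normal B, 36.8% in Normal C, 16.3% in Starvation A and 11.4% in Starvation B. By UMIs, the UN-marker cells with progenitor markers held 0 of 71454 in Normal A, 19877 of 222854 in Normal B and 88905 of 114679 in Normal C. They held 806874 of 1143866 UMIs in Starvation A and 471850 of 522004 in Starvation B. Sums over all 240 cells thus came mostly from these cells in Normal C and both starvation replicates. Counting only UN-marker cells with under 3 progenitor markers, the share was 1.76% ± 1.54 (n = 3) in normal and 1.90% ± 0.186 (n = 2) in starvation (exact permutation p = 0.8). When every cell was thinned to 1000 UMIs before the rule was applied, 48 cells met it, 47 of them among the 240, and the means were 0.514% in normal and 0.426% in starvation (exact permutation p = 1). Unthinned, starvation had the higher mean, and thinned, normal had it.

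**Figure D2:**
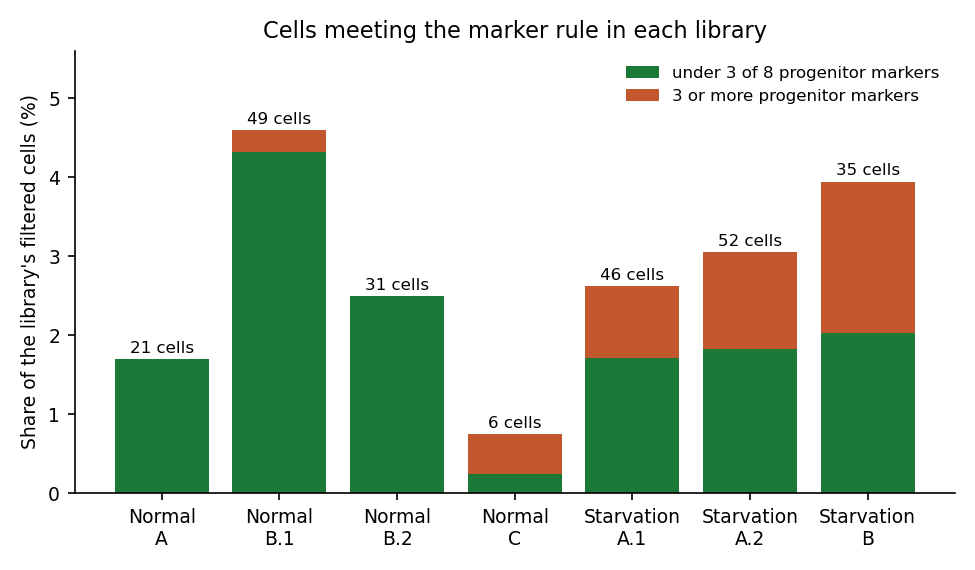
Bars give the share of UN-marker cells among the filtered cells of each of the 7 libraries (y axis, %), split into cells with under 3 (green) and with 3 or more (orange) of 8 progenitor markers, with the number of cells on top. The orange part is present in all 3 starvation libraries, in Normal C and in Normal B.1, and Normal B.1 has the highest share (4.6%).

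Apart from the marker genes, the genes with the highest ratio over neuron-marker cells could be told by how far they rested on the cells with progenitor markers. The ratio was taken between medians over the 4 replicates with 10 or more cells, for genes with at least 100 CPM, and the 25 highest are described. Several were high in the 179 cells with few progenitor markers. These were Sox14, an ecdysone-responsive transcription factor (13.5-fold in these cells), CBP, a calcium-binding protein (11.0-fold), trbl, the pseudokinase tribbles (13.8-fold), esg, a Snail family transcription factor (10.0-fold), hig, a secreted protein of the synaptic cleft (6.82-fold), and apt, a transcription factor (6.65-fold), besides the marker genes. hig stood at 1483 CPM in Normal A, 1606 in Normal B, 235 in Normal C, 1441 in Starvation A and 1362 in Starvation B, against 188 CPM in neuron-marker cells (median). Others were near the level of neurons there. fru, klu, CG17265, Pen and ash2 were 10.5-, 8.43-, 10.0-, 5.87- and 6.21-fold over neuron-marker cells among all 240 cells but 1.6-, 1.59-, 1.14-, 1.37- and 1.51-fold among the 179. For klu, which is among the 8 progenitor markers, the low value among the 179 follows in part from the split. The progenitor genes sna and cas lay between, with 4.33-fold each among the 179 cells. Among the 179 cells, dap, the inhibitor of cyclin E and Cdk2 that marks exit from the cell cycle, was 14.4-fold over neuron-marker cells, and crb, an apical polarity protein, 19.2-fold. These last 2 were chosen after their values were seen.

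Genes around TORC1 were high in UN-marker cells as a group. Of 17 listed genes with at least 10 CPM, 12 were higher than in neuron-marker cells in all 4 replicates and 1 was lower, with a median log2 ratio of 1.25 (10 CPM added), beside 18.5% higher and 29.1% lower of all 6458 genes and a median of -0.12. In the 179 cells 13 were higher and the median was 1.82. hdc itself is part of this list and of the rule. The study had reported unk, Thor and scyl, also on the list, as high or enriched in undifferentiated neurons of these data. These counts describe cells that were chosen by hdc and are no test.

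Thor, the translation inhibitor, stood at 1931 CPM in Normal A, 2212 in Normal B, 323 in Normal C, 1075 in Starvation A and 1128 in Starvation B, and at 60.9 to 386 CPM in neuron-marker cells. scyl, an inhibitor of TORC1, stood at 3345, 7054, 1186, 1596 and 1090 CPM in the same order, and at 244 to 873 CPM in neuron-marker cells. unk stood at 770, 1144, 227, 570 and 326 CPM. Values were thus highest in Normal B and lowest in Normal C or Starvation B, as those of hdc, with 8565, 13287, 3514, 4396 and 4190 CPM. Over the 179 cells the conditions overlapped or starvation was not below normal. There, unk stood at 770 CPM in Normal A, 1242 in Normal B, 1036 in Starvation A and 1436 in Starvation B, and Thor at 1931, 2247, 1519 and 2672 CPM. REPTOR-BP stood at 1022, 1458, 1027 and 1615 CPM in these cells, and S6k, the kinase that TORC1 activates, at 364, 503, 484 and 498 CPM, with ranges that overlapped between conditions. foxo, the transcription factor held back by insulin signalling, differed from the rest of the list. It had 178 CPM in the cells with progenitor markers of Starvation A and 110 CPM in those of Starvation B, and 39.9 to 68.3 CPM in the 179. Tor, Tsc1 and gig stayed at 28.0 CPM or below in every replicate.

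**Figure D3:**
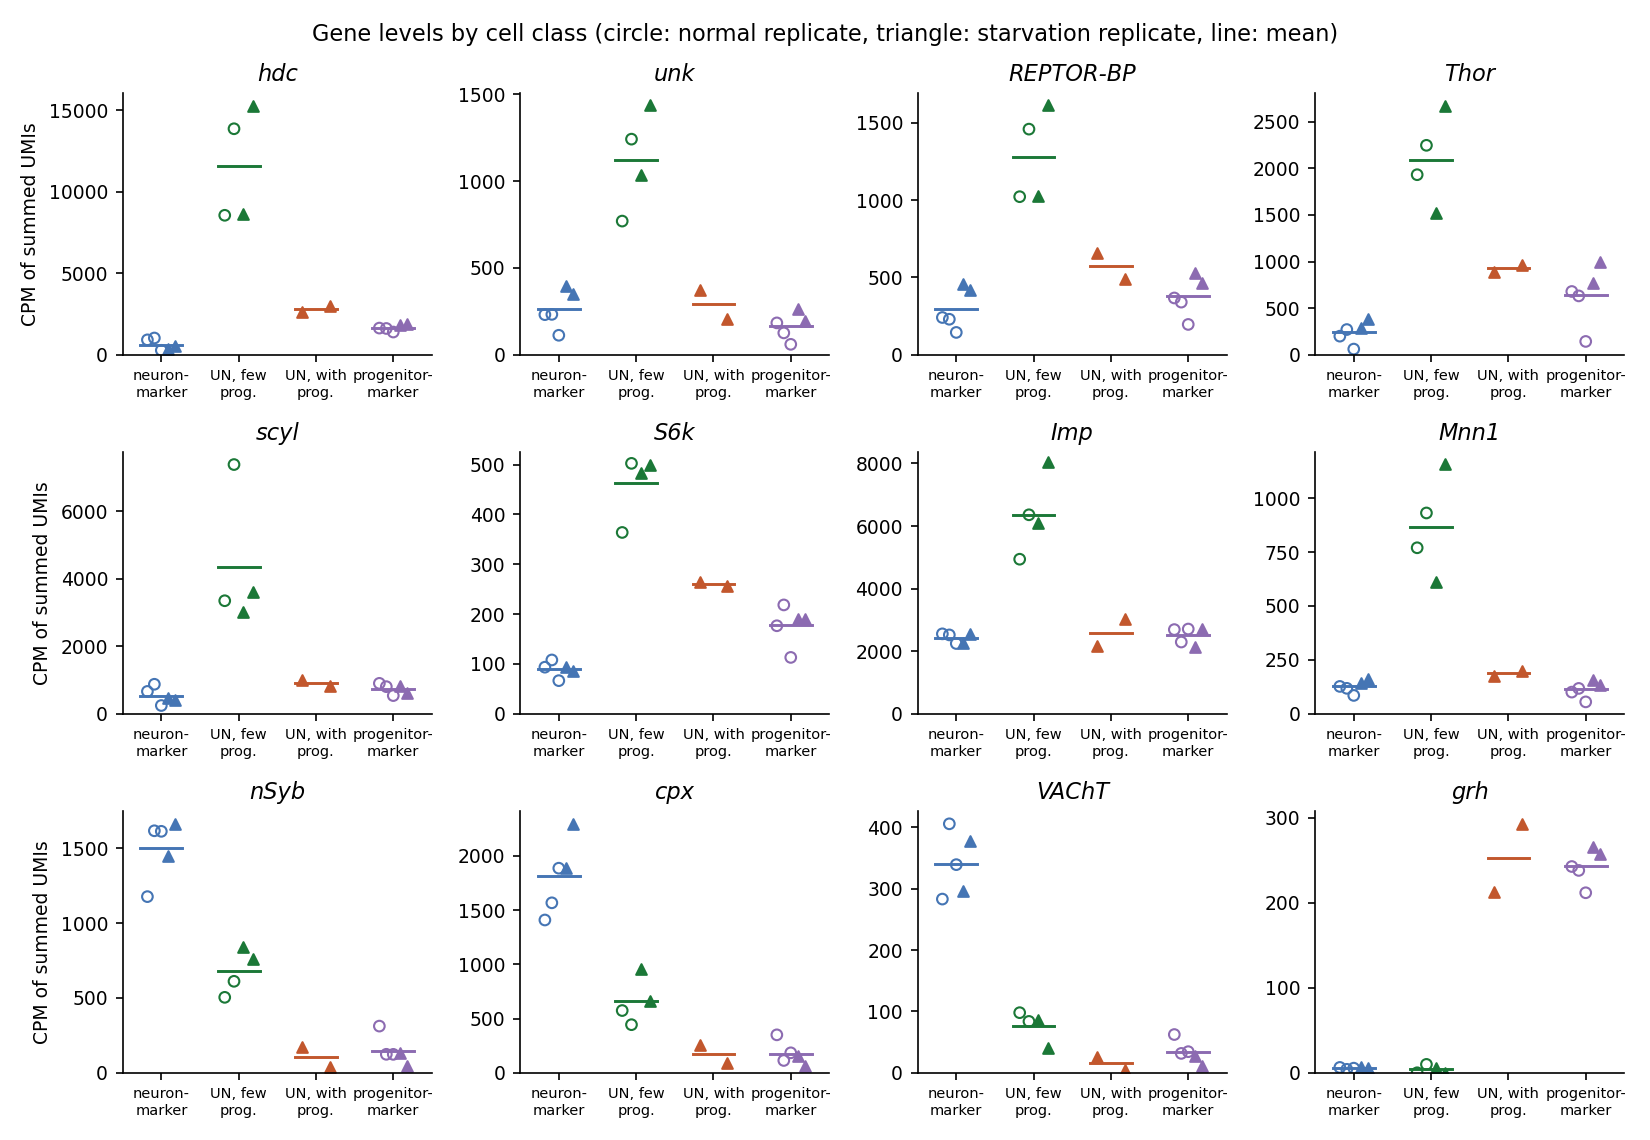
Each panel gives the level of a gene (y axis, CPM of summed UMIs) in neuron-marker cells, in UN-marker cells with few and with 3 or more progenitor markers and in progenitor-marker cells; circles are normal and triangles starvation replicates with 10 or more cells, and the line is their mean. hdc, unk, REPTOR-BP, Thor, scyl, S6k, Imp and Mnn1 are highest in the UN-marker cells with few progenitor markers, nSyb, cpx and VAChT in neuron-marker cells, and grh in the last 2 classes. hdc, nSyb, cpx and grh are among the genes that chose these classes.

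Synaptic genes were low against neurons but present. Of the 15 listed genes for synapses and excitability, 13 were lower than in neuron-marker cells in all 4 replicates and none was higher, with a median log2 ratio of -1.56, beside 29.1% lower and 18.5% higher of all genes and their median of -0.12. The list includes nSyb, Syt1, brp, Snap25, cpx and Syx1A, which chose the neuron-marker cells. For these genes a lower level than in neuron-marker cells follows in part from the choice. In the 179 cells 13 were lower as well, with a median of -1.06, and all 15 were higher than in progenitor-marker cells in every replicate, beside 27.2% of all genes. nSyb, the vesicle synaptobrevin of neurons, stood at 504 CPM in Normal A, 611 in Normal B, 837 in Starvation A and 758 in Starvation B in the 179 cells, and at 1176 to 1664 CPM in neuron-marker cells. elav, the pan-neuronal RNA-binding protein, and CadN, an adhesion protein, were the exceptions. elav stood at 574, 448, 528 and 399 CPM in the 179 cells, within the 427 to 539 CPM of neuron-marker cells except in Normal A and Starvation B, and reached 123 and 119 CPM in the cells with progenitor markers.

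Transmitter genes were mostly missing at this depth. Of 12 listed genes, 10 were lower than in neuron-marker cells in all 4 replicates (median log2 ratio -2.04), beside 29.1% of all genes. After thinning to 1000 UMIs, 66.2% of UN-marker cells had no UMI of VGlut, VAChT, Gad1 or Vmat, the genes that mark glutamatergic, cholinergic, GABAergic and monoaminergic neurons. This share was 32.7% in neuron-marker cells and 68.5% in the 73 muscle-marker cells, which should lack these genes. The muscle-marker cells were pooled over the replicates. It was 63.1% in the 179 cells and 75.4% in the 61. VGlut, the most frequent of the 4 genes, was found in 19.2% of thinned UN-marker cells and 16.4% of muscle-marker cells (50.0% and 49.3% unthinned, at median depths of 3581 and 3810 UMIs). The source of these UMIs was not tested. In the 179 cells, VGlut stood at 896 CPM in Normal A, 350 in Normal B, 828 in Starvation A and 1236 in Starvation B, overlapping the 836 to 1331 CPM of neuron-marker cells in Normal A and Starvation B, whereas VAChT, with 98.0, 83.8, 86.1 and 39.9 CPM, stayed below their 283 to 406 CPM.

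Among genes of newborn neurons and of maturation, 6 of 11 were higher than in neuron-marker cells in all 4 replicates and 2 lower (median log2 ratio 0.69), beside 18.5% higher and 29.1% lower of all genes. The list holds hig and br, which the study had reported as enriched in undifferentiated neurons of these data, so that the counts are a description. Imp, an RNA-binding protein of early-born neurons, stood at 4940 CPM in Normal A, 6360 in Normal B, 6104 in Starvation A and 8055 in Starvation B in the 179 cells, above the 2246 to 2557 CPM of neuron-marker cells. Mnn1, the fly menin, stood at 770, 931, 611 and 1156 CPM, against 85 to 161 CPM. nerfin-1, a zinc finger gene of newly born neurons, had 19.7 to 79.8 CPM in the 179 cells, above the 3.53 to 9.84 CPM of neuron-marker cells and within the 14.8 to 86.9 CPM of progenitor-marker cells. insb, another early gene, had no UMI in 3 of the 4 replicates of the 179 cells and 8.9 CPM in Starvation A, and 38.1 to 141 CPM in progenitor-marker cells. The 2 early genes thus differed. Against progenitor-marker cells, 7 of 9 cell cycle genes were lower in the 179 cells in all 4 replicates (median log2 ratio -1.82), beside 14.2% of all genes. Against neuron-marker cells 1 was higher and 0 lower, with a median of 0.51. In the comparison with progenitor-marker cells dap, the cell cycle inhibitor, was the single gene higher in all 4, with 42, 143, 139 and 299 CPM against 41.6, 41.1, 54.1 and 71.5 CPM, a margin that was near 0 in Normal A. Cytosolic ribosomal protein genes lay between both classes, with 67 of 82 higher than in neuron-marker cells and 80 lower than in progenitor-marker cells in all 4 replicates of the 179 cells, beside 19.5% and 14.2% of all genes. puc, the phosphatase induced by JNK signalling, stood at 504, 650, 442 and 718 CPM in the 179 cells, against 57.7 to 150 CPM in neuron-marker cells. It is 1 of 7 listed genes of stress and activity. Of these, 2 were higher and 2 lower than in neuron-marker cells in all 4 replicates. The shares over all genes were 19.5% and 24.8% in the 179 cells. The cell death genes rpr, hid, grim and skl had at most 39.9 CPM in any replicate of these cells.

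Whether 4 h without food changed UN-marker cells was tested on UMIs summed per replicate, Normal A and B against Starvation A and B. edgeR's quasi-likelihood test called 14 of 4276 genes at an adjusted p under 0.05 (0.327%), 12 higher in starvation (0.281%) and 2 lower (0.0468%). The 12 included grh, lin-28 and 3 E(spl) genes, described below, and the 2 were heat shock genes. All 12 were higher in the cells with progenitor markers than in the others in both starvation replicates, and 10 of them were higher in progenitor-marker than in neuron-marker cells in all 4 replicates. How many of all tested genes meet these conditions was not counted, so that the 2 counts are a description. Among UN-marker cells, the summed progenitor markers were 28.0 CPM in Normal A and 287 in Normal B against 810 in Starvation A and 1211 in Starvation B, and the part of this difference in the calls was not tested by itself. In the 179 cells with few progenitor markers, an alternative added after the data were seen, edgeR called 0 of 2171 genes, with 120 at an unadjusted p under 0.05; DESeq2 was not run on them. A marker level of 20 or more per 10000 also gave 0 calls by edgeR, with 519 at an unadjusted p under 0.05, and leaving out the 5% deepest cells gave 1. The calls also rested on single replicates. Without Normal A or without Normal B, edgeR called 0 genes, with 602 and 526 at an unadjusted p under 0.05, without Starvation A it called 467 and without Starvation B 168, where a condition with a single replicate takes its spread from the other condition. DESeq2 on all 240 cells called 176 (4.12%), 155 higher (3.62%) and 21 lower (0.491%), all 14 of them included. Without barcodes shared as above, 14 were called, 13 of them the same.

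Among the genes that rose, the largest values were those of the following. E(spl)m4-BFM, a Bearded family gene of Notch signalling, had no UMI in Normal A and B, 8.72 CPM in Normal C, and 89.2 CPM in Starvation A and 126 in Starvation B, at least 10.6-fold higher than the floor of 3 UMIs over Normal A and B (edgeR adjusted p = 0.0407). E(spl)mgamma-HLH, a Notch target of neuroblasts, stood at 0 CPM in Normal A, 8.97 in Normal B, 170.5 in Starvation A and 266 in Starvation B, a log2 fold change of 5.6 ± 0.770 (SE, edgeR adjusted p = 0.0382). grh, the late temporal factor of neuroblasts, stood at 0, 8.97, 151 and 264 CPM (5.53 ± 0.804, adjusted p = 0.0407). The replicates of the 2 conditions did not overlap for these or any other of the 14 genes, also with Normal C. Among the 179 cells, however, grh stood at 0, 9.85, 5.93 and 0 CPM and E(spl)mgamma-HLH at 0, 9.85, 17.8 and 0 CPM, so that both were at or near 0 in every replicate.

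lncRNA:CR43283, which newer annotation lists as cherub, an RNA of neuroblasts, rose by 5.61 ± 0.536 on the log2 scale (edgeR adjusted p = 0.00973), the smallest p of the fit. It stood at 28.0 CPM in Normal A, 17.9 in Normal B, 818 in Starvation A and 550 in Starvation B, and at 28.0, 14.8, 53.4 and 99.7 CPM in the 179 cells. lin-28, an RNA-binding protein of stem cells, stood at 0, 13.5, 148 and 174 CPM (log2 fold change 4.6 ± 0.693, edgeR adjusted p = 0.0407), and at 0, 14.8, 50.4 and 79.8 CPM in the 179 cells. fru, a zinc finger transcription factor, stood at 42, 58.3, 324 and 527 CPM (3.65 ± 0.540, edgeR adjusted p = 0.0407), and at 42, 19.7, 38.6 and 0 CPM in the 179 cells. The values for lncRNA:CR43283 and lin-28 were thus still higher in both starvation replicates of the 179 cells, and those for fru were not. In Starvation B, however, 18 of the 179 cells held 50154 UMIs together, so that such values rest on few UMIs there. E(spl)m8-HLH, CG9336 (listed as bero in newer annotation), CG4250 and Pex7, a peroxisomal import receptor, rose by 4.63 ± 0.729, 4.33 ± 0.570, 3.93 ± 0.608 and 3.11 ± 0.468 (edgeR adjusted p = 0.0382 to 0.0418). CG42566, and CG44325 outside the naming rule, were called too. Of the 12 genes, 7 had both starvation replicates above both normal ones in the 179 cells, and the share of all genes that do so was not counted. Of the 12, 4 could be tested there, none of them called (edgeR adjusted p = 0.886 to 0.996).

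**Figure D4:**
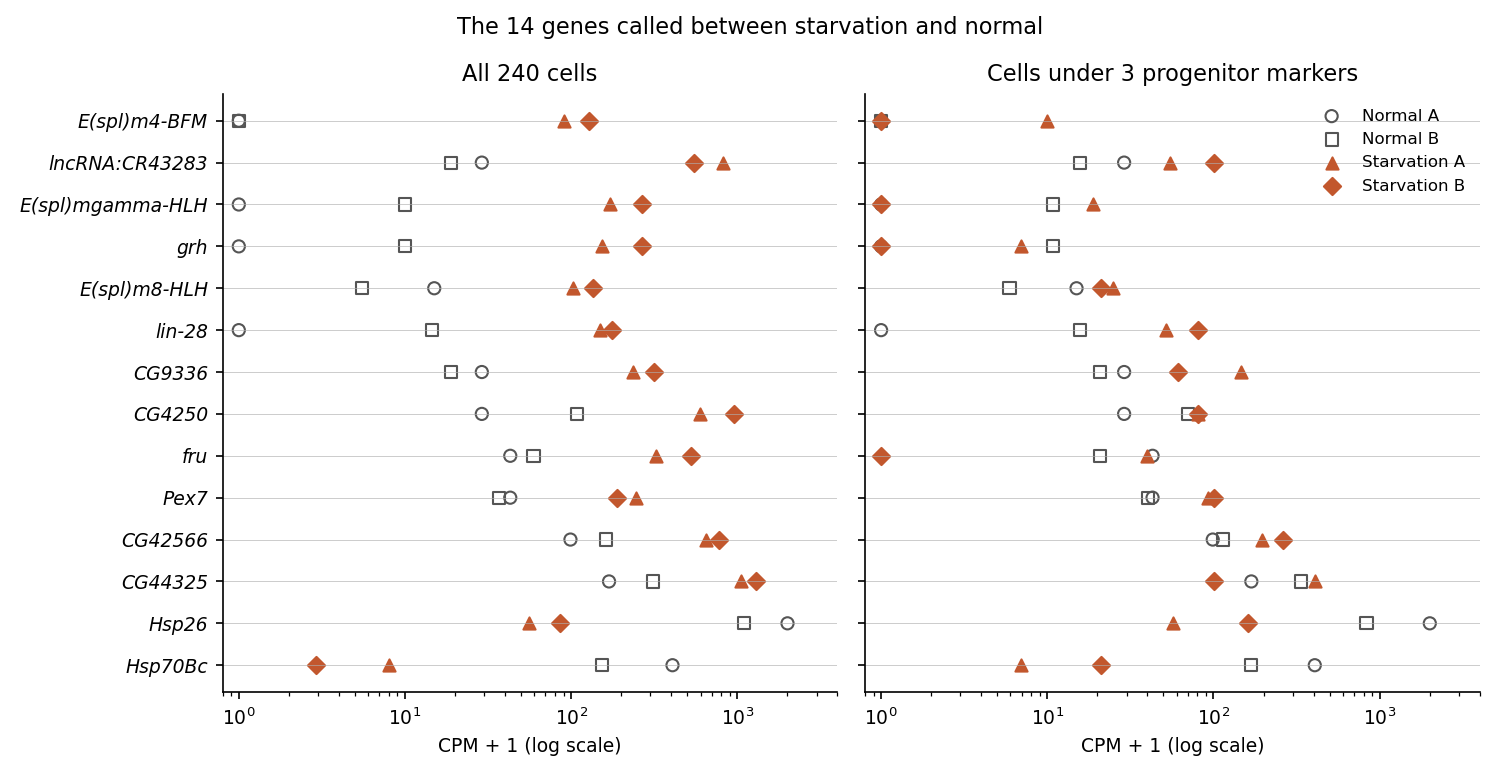
The level of each of the 14 called genes (x axis, CPM + 1, log scale) is given for Normal A and B (open) and Starvation A and B (filled), over all 240 cells on the left and over the cells with under 3 progenitor markers on the right. On the left the conditions are apart for every gene, and on the right grh, fru and E(spl)mgamma-HLH lie together at low values while Hsp26 and Hsp70Bc remain lower in starvation. grh is among the progenitor markers that split the cells.

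Of the heat shock genes 2 fell, and their values were low in starvation in the 179 cells as well. Hsp26, a small heat shock protein, stood at 2001 CPM in Normal A, 1099 in Normal B, 750 in Normal C, 55.1 in Starvation A and 84.3 in Starvation B, and fell by 3.82 ± 0.499 on the log2 scale (edgeR adjusted p = 0.0382). Hsp70Bc, which has near-identical copies and is therefore uncertain as a single gene, stood at 406, 153, 131, 6.99 and 1.92 CPM and fell by 5.01 ± 0.680 (edgeR adjusted p = 0.0382). Hsp68, which did not pass the test, stood at 532, 265, 270.3, 3.5 and 26.8 CPM (edgeR adjusted p = 0.0554). Over the 179 cells, Hsp26 stood at 2001, 833, 56.4 and 159.5 CPM in the 4 replicates tested (log2 fold change -3.97 ± 0.633, edgeR adjusted p = 0.149). Of 18 listed heat shock genes 12 were tested, of which edgeR called 2 and DESeq2 7, all lower, and 10 of the 12 had a negative log2 fold change, with a median of -1.98 beside -0.01 over all genes. In neuron-marker cells 11 of 13 tested genes had a negative log2 fold change (median -0.95), none was called, and edgeR called 0 of 7998 genes there, with 737 at an unadjusted p under 0.05. DESeq2 was not run on neuron-marker cells. Negative values thus prevailed in this list in both classes, with exceptions. Hsc70-4, a constitutive chaperone, stood at 2435 CPM in Normal A, 2266 in Normal B, 2538 in Normal C, 2895 in Starvation A and 3448 in Starvation B, but at 2435, 2163, 1178 and 1196 CPM in the 179 cells. lncRNA:Hsromega, the nuclear RNA of the heat shock response, had 9797, 7597, 2904, 2470 and 1921 CPM in UN-marker cells but 9797, 7922, 5647 and 11704 CPM in the 179 cells, where the conditions overlapped.

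**Figure D5:**
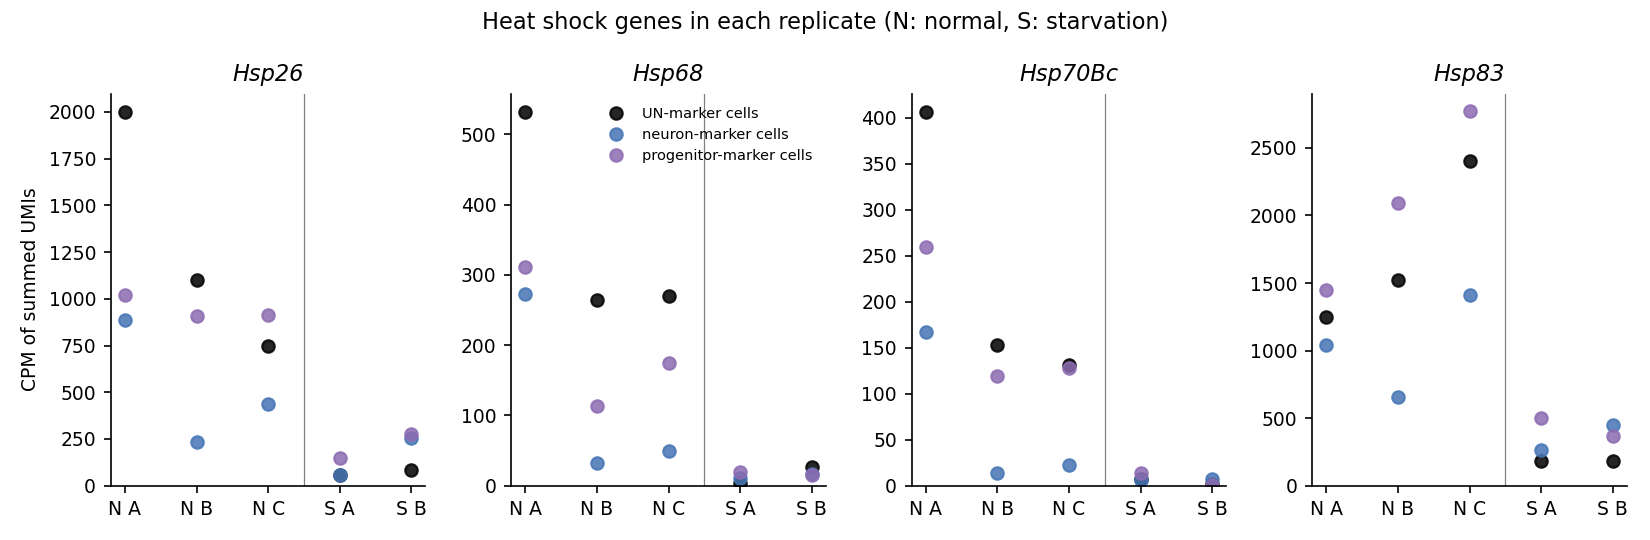
Points give the level (y axis, CPM of summed UMIs) of Hsp26, Hsp68, Hsp70Bc and Hsp83 in each of the 5 replicates (x axis, N normal, S starvation) for UN-marker, neuron-marker and progenitor-marker cells. Hsp26 stands at 750 to 2001 CPM in the normal and at 55.1 and 84.3 CPM in the starvation replicates of UN-marker cells. In progenitor-marker cells it stands at 907 to 1018 CPM in normal and at 149 and 275 CPM in starvation. In neuron-marker cells the conditions overlap for Hsp26, with 234 CPM in Normal B and 255 CPM in Starvation B. The other classes are lower in starvation too for Hsp68, Hsp70Bc and Hsp83.

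In the other lists edgeR called 0 genes, while DESeq2 called most ribosomal ones. Of the 87 cytosolic ribosomal protein genes, 81 were tested and 81 had a positive log2 fold change in starvation, with a median of 1.68. edgeR gave 80 of them an unadjusted p under 0.05 and called 0 (smallest adjusted p = 0.0554), and DESeq2 called 80. The median was 0.39 in the 179 cells, where edgeR called 0 and gave 25 an unadjusted p under 0.05, and 0.43 in neuron-marker cells. Of the TORC1 and REPTOR list, 15 of 19 genes were tested, and the median was -0.27. edgeR called 0 of them with 2 at an unadjusted p under 0.05, and DESeq2 called 1, scyl, lower in starvation. All 15 synaptic genes had a negative log2 fold change among the 240 cells (median -0.71, edgeR 0 called and 2 at an unadjusted p under 0.05, DESeq2 0 called), whereas 10 of 15 had a positive one in the 179 cells (median 0.28). The 6 cell cycle genes tested had positive values (median 1.23, edgeR 0 called and 3 at an unadjusted p under 0.05, DESeq2 0 called). Synaptic, cell cycle and ribosomal genes thus had values nearer to those of progenitor-marker cells in starvation when all 240 cells were summed, and the summed progenitor markers moved with them as given above. The part of the latter was not tested.

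The response was then compared with that of neuron-marker cells in the same replicates, with the replicate as a block. edgeR called a different response in 40 of 7790 genes (0.513%), in 26 (0.334%) the response being higher in UN-marker cells and in 14 (0.18%) lower. grh differed by 4.79 ± 0.872 (log2, SE), lncRNA:CR43283 by 4.47 ± 0.602, klu by 2.55 ± 0.585 and eEF1alpha1, the elongation factor of translation, by 1.5 ± 0.347 (edgeR adjusted p = 0.00905, 0.000213, 0.0368 and 0.0384). klu and eEF1alpha1 were chosen after their values were seen. Genes of excitable cells were among the 14. nAChRalpha6, an acetylcholine receptor subunit, stood at 2029 CPM in Normal A, 2414 in Normal B, 636 in Starvation A and 211 in Starvation B in UN-marker cells, and at 2145, 1874, 1708 and 2034 CPM in neuron-marker cells, a difference of -2.07 ± 0.460 (edgeR adjusted p = 0.0324). eag, a potassium channel, stood at 434, 592, 108 and 63.2 CPM against 124, 155, 144 and 153 CPM (-2.29 ± 0.476, edgeR adjusted p = 0.0241). Over the 179 cells nAChRalpha6 stood at 2029, 2621, 1611 and 1974 CPM and eag at 434, 636, 285 and 558 CPM, so that the starvation replicates were nearer to the normal ones. With the 179 cells in place of the 240, edgeR called 15 genes, of which 3 were among the 40: Hsp26, DAT, the dopamine transporter, and scro, a homeobox gene. Of 14 heat shock genes tested for the difference, 2 were called. Hsc70-4 had a difference of 2.04 ± 0.402 (edgeR adjusted p = 0.0164) and one of 0.21 in the 179 cells. For Hsp26 the difference was -2.13 ± 0.512 over all 240 cells (edgeR adjusted p = 0.0478) and -1.81 ± 0.433 over the 179 (edgeR adjusted p = 0.0215). DAT rested on Starvation B in the 179 cells, with 28.0 CPM in Normal A, 14.8 in Normal B, 8.9 in Starvation A and 598 in Starvation B. hdc, which the rule uses, was also among the 15, and its values are only described. Without Normal A the test called 20 genes, without Normal B 4, without Starvation A 645 and without Starvation B 31.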

How the data were processed

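The deposited files hold UMI counts per gene and cell for 7 libraries. Per the study's methods, the authors made these counts with Cell Ranger 2.2.0 on FlyBase release r6.22 and kept barcodes called as cells. Entries of the deposited aggregated matrices and of the single libraries were compared, and 0 differed. Libraries were assigned to the 5 replicates by matching their number of barcodes with the sequencing table of the study, as the labels do not give this. Nothing says that replicates of a condition came from separate days. Cells were filtered and chosen by the rule given above, and no doublets were removed; an alternative left out the 5% deepest cells of each library. UMIs were summed per replicate with at least 10 chosen cells, and the library depth was 5359444 to 25232852 UMIs. Sums were tested in edgeR 4.0.16 (TMM, filterByExpr, glmQLFTest) with limma 3.58.1 in R 4.3.3, with Benjamini-Hochberg adjustment across every gene tested. DESeq2 1.42.0 served as an alternative. Shares were compared by exact permutation over replicates. Thinning drew 1000 UMIs per cell with seed 42, and no filtered cell was shallower. Intervals and limits from counts cover counting error only, and p-values measure the spread between these replicates. The edgeR scripts were tested on simulated data. Named genes were the 4 markers, listed genes, the 25 with the highest ratio to neuron-marker cells, and for each test up to 10 called genes from either end of the log2 fold changes (mean log2 CPM above 3, conditions not overlapping). Members and lists were chosen with earlier results of these data known, and genes named outside the rule are said to be. Positions come from the BDGP6 annotation, which holds 312 of 317 genes looked up. Alternatives are given in the closing section.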

Additional observations from a re-analysis of the deposited data

Results flagged for a closer look

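Normal C stood apart from the other 3 normal libraries in 2 of the 5 measures compared over the 4 normal libraries: its UN-marker cells had a median of 17866 UMIs, and 66.7% of them (4 of 6) had 3 or more progenitor markers. Chance alone marks about 1 in 20 such groups, and the 2 measures come from the same 6 cells. Libraries B.1 and B.2 belong to 1 replicate, so that the 4 libraries are not 4 separate samples and this rate is only approximate.

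The response to starvation differed between UN-marker cells and neuron-marker cells in 40 genes (edgeR, adjusted p under 0.05). Values are the response in UN-marker cells minus that in neuron-marker cells on the log2 scale. For grh, 1 of the progenitor markers that limited the neuron-marker cells, the difference follows in part from that choice. Among the called genes with a mean log2 CPM above 3 and conditions that did not overlap (38 of 40), the highest besides grh (4.79) and lncRNA:CR43283 (4.47) were wb, a laminin subunit (5.59), cv-c (4.79), Jheh2 (4.68), E23, an ABC transporter (4.35), DAT (3.66), lin-28 (3.59), scro (3.49) and CG4250 (3.30). The lowest of them were CG7991 (-5.07), HLH4C (-4.78), CG45781 (-3.05), the adenylate cyclase Ac78C (-2.59), the LIM homeobox gene Lim3 (-2.45), CG2082 (-2.42), cv-2, which binds BMP ligands (-2.33), eag (-2.29), Hsp26 (-2.13) and nAChRalpha6 (-2.07). Over the cells with under 3 progenitor markers, E23 and grh turned to -0.36 and -0.92, and neither was called (edgeR adjusted p = 1 for both).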

How the results depend on the processing

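The number of genes called between conditions depended on nearly every setting, and 3 replicates or fewer per condition are the limit of all tests here. For starvation against normal in UN-marker cells (14 genes), DESeq2 called 176, no low-count filter 295, each library with 10 or more cells as a sample of its own 290, every replicate with at least 1 cell 35, cells under 10% mitochondrial UMIs 7, cells without the 5% deepest 1, and a marker level of 20 or more per 10000 as well as cells with under 3 progenitor markers 0. Leaving out a replicate gave 0 to 467. Without shared barcodes it was 14. All 4 marker genes left too few cells for a test. With the replicate number of the libraries numbered 1 to 3 as a block the count was 251, against 290 without the block; same-numbered libraries did not deviate together (r = -0.11, -0.07 and 0.04), so that they share only a number.

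For the difference of response (40 genes), DESeq2 called 13, no low-count filter 128, the libraries taken singly 218, cells without shared barcodes 63 and cells with under 3 progenitor markers 15, with 4 to 645 over the replicates left out. The difference in share of 1.42 percentage points (starvation minus normal) kept its sign in all alternatives but thinning, where it was -0.088, and passed no threshold; over the replicates left out it was 0.805 to 2.16. Of the 12 genes named for starvation, all kept their direction wherever they were tested, but not all were tested everywhere. In cells with under 3 progenitor markers only 4 were tested, and all 4 were no longer called. Without the 5% deepest cells 9 were tested, and 8 of them were no longer called. Of the 20 named for the difference, E23 (-0.36) and grh (-0.92) reversed in cells with under 3 progenitor markers. grh is itself among the markers that split the cells. The causes were not tested.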

Other observations

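Nop56, hoip and Nop60B, genes of the nucleolar particles that modify and process ribosomal RNA, had lower values in starvation in UN-marker cells. They were chosen after their values were seen, and no test is given. Nop56, a core protein of these particles, stood at 644 CPM in Normal A, 691 in Normal B and 462 in Normal C, against 146 in Starvation A and 146 in Starvation B. hoip stood at 406, 485, 828, 83.9 and 117 CPM in the same order, and Nop60B, the pseudouridine synthase, at 364, 489, 375, 189.7 and 245 CPM. For all 3 genes every normal replicate was above every starvation replicate. The same held in the cells with under 3 progenitor markers, with 644, 665, 128 and 159.5 CPM of Nop56 and 406, 468, 50.4 and 99.7 CPM of hoip, so that the lower values were found without the cells with progenitor markers. They were also found in neuron-marker cells, where Nop56 stood at 196, 165, 126, 69.4 and 56.7 CPM and hoip at 241, 204, 306, 43.1 and 66.6 CPM. In progenitor-marker cells Nop56 stood at 447, 685, 450, 241 and 145 CPM. nop5 and NHP2 likewise had every normal replicate of UN-marker cells above every starvation replicate. Fib did not, with 308, 431, 174, 184 and 226 CPM. How many of all genes were apart in this way was not counted.

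Guidance and adhesion genes were lower in UN-marker than in neuron-marker cells for 5 of 12 genes in all 4 replicates and higher for 0, beside 29.1% lower and 18.5% higher over all genes. robo2, a Slit receptor, went the other way in the normal replicates, with 182 CPM in Normal A, 256 in Normal B and 593 in Normal C against 84.5, 82.4 and 106 CPM in neuron-marker cells, and stood at 79.6 and 84.3 CPM in Starvation A and Starvation B, below the 116 and 159.9 CPM of neuron-marker cells there. Regional genes were scarce: Ubx, abd-A, Abd-B and lab had at most 4.49 CPM in any replicate of UN-marker cells, in brains whose ventral nerve cord had been removed.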
